A study of Mus musculus with 12 samples.

Results

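Adhesion G protein-coupled receptors are cell-surface receptors with a long extracellular part, used to bind neighbouring cells and the matrix, joined to a bundle of membrane-spanning helices that signals through G proteins. They were taken here as every protein-coding gene of the deposited gene table whose symbol has the Adgr prefix followed by a subfamily letter and a number. This gave 27 of 45777 genes, and 1 further gene with the prefix, a pseudogene, was not included. The family was followed across 4 groups of purified mouse astrocytes, and 22 of the 27 receptors had enough counts to be tested.

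The study profiled messenger RNA of astrocytes from the cerebral cortex at postnatal day 14, to ask how early life stress acts with and without the glucocorticoid receptor in these cells. Cre- control and Cre- ESD animals carry loxP-flanked alleles of Nr3c1, the glucocorticoid receptor gene (Nr3c1 flox/flox), and no Cre. AGR cKO control and AGR cKO ESD animals carry the same alleles plus Aldh1l1-CreERT2, a tamoxifen-activated recombinase driven by the promoter of an astrocyte gene. All groups, controls included, received 4-hydroxytamoxifen on postnatal days 5 to 7. ESD pups were kept from the dam for 3 hours a day from postnatal day 1 to day 14, and cells were purified by immunopanning and magnetic beads. Each group has 3 libraries, with 42603546 to 52130081 counts per library. The labels do not say whether the libraries came from separate animals, so p-values measure only the spread between these samples.

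Most adhesion receptors are cut within their own extracellular part at the GPS motif, a short stretch just ahead of the membrane helices, by a reaction of the receptor itself. The new end of the membrane-bound piece can then act as a tethered agonist when the outer piece is pulled away. In the nervous system the family is known for roles in synapse formation (latrophilins and the BAI receptors), in engulfment (Adgrb1), in myelination (Adgrg1, Adgrg6) and in the growth of brain vessels (Adgra2). Adgre1, known as F4/80, is a standard macrophage and microglia antigen, and Adgrl4 and Adgrf5 are known from endothelial cells.

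The cleavage region is shown for several of the receptors with the highest transcript levels and for Adgrl4, because it is the element that defines the family. A script searched the GENCODE M21 coding sequences (build GRCm38, the same assembly as mm10) for Cys-any-Cys-any-His-Leu followed by Ser or Thr. The motif was found in 16 of 27 receptors, a wider pattern alone in 4, and neither in 7, which include Adgre1 and Adgra3. No match says only that these letters were not found. Each stretch has 39 bases, or 13 codons, printed 5′ to 3′ on the coding strand. Capitals mark the codons of the His-Leu-Ser/Thr residues, or, in Adgrb3, which matched only the wider pattern, the codons at the aligned positions.
Adgrg1, chr8:95007630-95007668, plus strand: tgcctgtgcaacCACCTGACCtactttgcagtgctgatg
Adgrb2, chr4:130011895-130011933, plus strand: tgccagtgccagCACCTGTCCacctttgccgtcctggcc
Adgrb3, chr1:25228439-25228477, minus strand: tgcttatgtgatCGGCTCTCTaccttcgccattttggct
Adgrl1, chr8:83933994-83934032, plus strand: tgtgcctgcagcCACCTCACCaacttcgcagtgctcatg
Adgrl3, chr5:81694571-81694609, plus strand: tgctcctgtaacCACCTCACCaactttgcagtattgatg
Adgrl4, chr3:151509323-151509361, plus strand: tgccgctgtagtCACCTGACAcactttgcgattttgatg
Adgre5, chr8:83725883-83725921, minus strand: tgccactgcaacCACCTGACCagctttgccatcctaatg

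Nr3c1 checked the labels. Its level was 214, 210 and 237 CPM (counts scaled by library size) in Cre- control and 209, 205 and 199 CPM in Cre- ESD. It was 102, 93.2 and 108 CPM in AGR cKO control and 90.5, 66.6 and 95.9 CPM in AGR cKO ESD, so every AGR cKO library lay below every Cre- library. Averaged over conditions, Nr3c1 was lower in AGR cKO by a log2 fold change of -1.20 ± 0.08 (SE; adjusted p = 0.000203, edgeR quasi-likelihood test with Benjamini-Hochberg adjustment over 19163 genes). The summed level of 12 astrocyte markers was 40757 to 56397 CPM over the 12 libraries. Other cells were present: 14 microglia and macrophage markers summed to 165 to 1010 CPM, 12 endothelial markers to 266 to 2007 CPM, and 12 neuron markers to 19.8 to 52.3 CPM. The highest such sum was that of 11 mural and fibroblast markers, at 1825 to 5816 CPM. The sum of 12 oligodendrocyte lineage markers was 541 to 665 CPM. Cre- control replicate 1 stood apart, with the highest sums of the microglial and the endothelial markers. In bulk samples, fewer cells of a type and less RNA per cell cannot be told apart.

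The family's transcripts summed to 1435 to 1935 TPM (a level scaled by transcript length and library) per library, and 0.266% to 0.331% of counts. Adgrg1 (GPR56), a receptor for collagen III and transglutaminase 2, supplied 36.8% to 46.8% of this in each library and ranked 128 among all genes by mean TPM. Adgrg1, Adgrb2, Adgrl1 and Adgrb1 together made up 64.0% to 79.1%. Shares of the family's TPM by subfamily are given as the mean of the share over the 12 libraries. The Adgrg genes held 42.8%, the Adgrb (BAI) genes 23.0% and the Adgrl genes, which are the latrophilins and Adgrl4, 20.6%. Adgra held 5.91%, Adgre 4.86%, Adgrf 2.54% and Adgrv1 0.254%. Adgrd1 held 0.00864%.

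By mean TPM over the 12 libraries, Adgrg1 led at 693 TPM, followed by Adgrb2 at 183 TPM, Adgrl1 at 183 TPM and Adgrb1 at 135 TPM. The libraries of Adgrg1 (570 to 821 TPM) lay above all libraries of any other receptor. Those of Adgrb2 and Adgrl1 overlapped, as did those of the next receptors in the order: Adgre5 (70.0 TPM), Adgrl3 (57.3 TPM), Adgrb3 (54.8 TPM), Adgra3 (51.9 TPM), Adgrl2 (51.3 TPM), Adgrl4 (43.5 TPM) and Adgrf5 (40.8 TPM). In all, 11 receptors were at 40 TPM or above and 5 between 1 and 40 TPM, namely Adgra2 (32.9 TPM), Adgra1 (11.4 TPM), Adgre1 (9.17 TPM), Adgrv1 (4.11 TPM) and Adgrg6 (2.67 TPM). Below 1 TPM were 6 tested receptors, from Adgrf2 at 0.583 TPM to Adgrd1 at 0.141 TPM, with Adgrf4, Adgrg3, Adgrg5 and Adgrg2 between them.

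The other 5 receptors were too low to test. The highest count in any library was 19 for Adgre4, 17 for Adgrf1 and 8 for Adgrf3. Adgrg4 and Adgrg7 had no count in any library, which at 3 counts allows a level of up to 0.0575 to 0.0704 CPM depending on the library, covering counting error only.

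**Figure D1:**
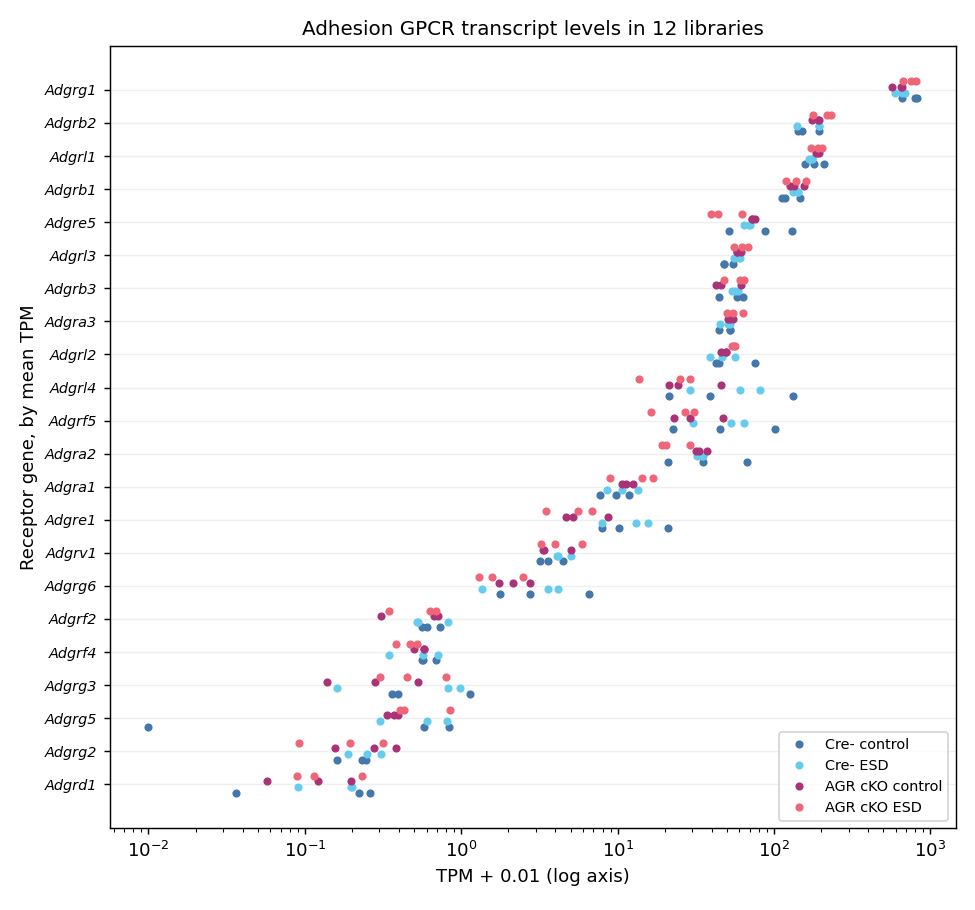
Level of the 22 tested receptors in each of the 12 libraries, in TPM on a log axis, ordered by mean TPM and coloured by group. Adgrg1 sits between 570 and 821 TPM, above every other receptor, and the libraries of Adgrl4 and Adgrf5 are spread more widely than those of Adgrl1.

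Shares of transcripts in the deposited transcript table, by start position, differed widely between libraries of 1 group. For Adgrg1, transcripts starting at 8:94994244-94995185 held 37.2% to 72.2% of the gene's TPM and the transcript starting at 8:94984399 held 19.2% to 50.7%. For Adgrb2, the upstream start at 4:129984773-129985078 held 96.8% in AGR cKO control replicate 1 and 14.4% to 34.8% in the other 11 libraries. Adgrf5 was divided between starts near 17:43360329 (33.6% to 63.7%) and near 17:43389083 (36.3% to 66.4%).

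Several receptor genes lie side by side. Adgrg5, Adgrg1 (8:94974756-95014208) and Adgrg3 are neighbours on chromosome 8 although their levels differ widely, at 0.483, 693 and 0.521 TPM. Adgre5 (8:83723245-83741311) and Adgrl1 (8:83900098-83941954) also lie within 200 kb of each other. Adgrf2 and Adgrf4 overlap on the minus strand of chromosome 17, so reads in the overlap could be counted for either. Adgre5 overlaps Ddx39a, and Adgra2 (8:27085520-27123436) overlaps Brf2. Counts of these receptors are uncertain, and whether the counting used the strand is not stated.

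None of the receptors known from synapses passed the test in any comparison. Adgrb1 (BAI1), a receptor for exposed phosphatidylserine on dying cells, lies at 15:74516196-74589465. Its level was 229, 314 and 233 CPM in Cre- control, 308, 298 and 282 CPM in Cre- ESD, 255, 281 and 324 CPM in AGR cKO control, and 302, 327 and 253 CPM in AGR cKO ESD. All 4 groups overlapped. Adgrb2 (BAI2; 4:129984773-130022633), its close relative, had 232, 349 and 264 CPM in Cre- control, 347, 340 and 249 CPM in Cre- ESD, 308, 335 and 331 CPM in AGR cKO control, and 398, 389 and 313 CPM in AGR cKO ESD. Adgrb3 (BAI3; 1:25067476-25834772), the receptor of the C1q-like proteins, had 101, 138 and 111 CPM in Cre- control, 129, 138 and 121 CPM in Cre- ESD, 123, 129 and 119 CPM in AGR cKO control, and 150, 145 and 117 CPM in AGR cKO ESD. The groups of both genes overlapped in all 4 pairwise comparisons. Averaged over conditions, the log2 fold change of AGR cKO against Cre- was 0.07 ± 0.10 (SE) for Adgrb1, 0.22 ± 0.11 for Adgrb2 and 0.09 ± 0.09 for Adgrb3, and none passed the test (adjusted p = 0.769, 0.32 and 0.652).

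Among the latrophilins, which bind teneurins and FLRT proteins across the synapse, Adgrl1 had 400, 565 and 478 CPM in Cre- control, 475, 451 and 483 CPM in Cre- ESD, 484, 491 and 509 CPM in AGR cKO control, and 470, 524 and 495 CPM in AGR cKO ESD. Its lowest and its highest value both fell in Cre- control. Adgrl3 (5:81019085-81827825) had 188, 235 and 197 CPM in Cre- control, 252, 236 and 232 CPM in Cre- ESD, 227, 246 and 230 CPM in AGR cKO control, and 268, 269 and 230 CPM in AGR cKO ESD. Adgrl3 was 0.22 ± 0.09 (SE) log2 units higher under stress in Cre- (unadjusted p = 0.0394, adjusted p = 0.691), and the 2 groups overlapped by a small margin. Adgrl2 lay between 73.5 and 138 CPM over the 12 libraries, with its highest value in Cre- control replicate 1. Adgra3 (GPR125; 5:49959951-50058996), of the Adgra subfamily, had 76.5, 83.4 and 69.1 CPM in Cre- control, 80.9, 82.3 and 71.2 CPM in Cre- ESD, 77.8, 84.6 and 79.4 CPM in AGR cKO control, and 88.5, 95.9 and 78.7 CPM in AGR cKO ESD.

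Adgrg1 was the receptor with the lowest p for a stress response that differs between genotypes. Its level was 1012, 1088 and 858 CPM in Cre- control and 804, 905 and 897 CPM in Cre- ESD. It was 763, 855 and 879 CPM in AGR cKO control and 1040, 1042 and 902 CPM in AGR cKO ESD. The stressed AGR cKO libraries all lay above the unstressed ones, while in Cre- the groups overlapped. The log2 fold change under stress was -0.18 ± 0.11 (SE) in Cre- and 0.26 ± 0.11 in AGR cKO. The difference between these, the interaction, was 0.44 ± 0.15 (unadjusted p = 0.0134), and it did not pass the adjustment over all genes (adjusted p = 0.999). The astrocyte marker sum also varied between libraries: Adgrg1 amounted to 1.43% to 2.48% of it over the 12. Adgrg1 varied 1.43-fold between libraries and 1.74-fold relative to that sum. A single gene, Slc1a2, supplied 18052 to 29869 CPM of the sum, so the ratio leans on the level of that gene.

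Adgre1 (17:57358581-57483529) was the single receptor called in any comparison. Its level was 22.0, 9.06 and 11.6 CPM in Cre- control, 18.1, 14.7 and 8.95 CPM in Cre- ESD, 5.08, 5.69 and 9.72 CPM in AGR cKO control, and 4.09, 5.99 and 7.72 CPM in AGR cKO ESD. Over 6 against 6 libraries the genotypes overlapped, because AGR cKO control replicate 3 lay above the lowest Cre- libraries. Averaged over conditions, the log2 fold change of AGR cKO against Cre- was -1.15 ± 0.27 (SE; adjusted p = 0.042, edgeR). It was -1.06 ± 0.38 in unstressed and -1.23 ± 0.38 in ESD animals, neither past the threshold (adjusted p = 0.375 and 0.163). Without Cre- control replicate 1 the averaged value was -0.91 ± 0.24 (adjusted p = 0.0682). The call was also lost without Cre- control replicate 3 (adjusted p = 0.0606), Cre- ESD replicate 1 (0.0918) or 2 (0.07), AGR cKO control replicate 1 (0.107) or 2 (0.117), or AGR cKO ESD replicate 1 (0.102) or 2 (0.0775).

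Microglial markers moved with Adgre1. All 14 markers of microglia and macrophages had lower fitted values in AGR cKO, with a median log2 fold change of -1.11 averaged over conditions against -0.0023 for all genes, and 0 of the 14 passed the test. Their sum was 351 to 1010 CPM in Cre- control, 485 to 815 CPM in Cre- ESD, 198 to 449 CPM in AGR cKO control and 165 to 433 CPM in AGR cKO ESD. Adgre1 varied 5.38-fold between libraries, while its size relative to that sum varied 1.47-fold, from 1.78% to 2.62%. That percentage was 1.85% to 2.62% in Cre- libraries and 1.78% to 2.57% in AGR cKO libraries. A further fit took as covariates the mean log2 CPM of the microglial and of the endothelial markers, not their sums. In it the fold change was -0.37 ± 0.14 (adjusted p = 0.51, edgeR). That fit called 0 of all genes in each genotype comparison, so Nr3c1 did not pass it either. It spends 2 further degrees of freedom, and its covariates overlap with genotype, because both marker lists had lower fitted values in AGR cKO.

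**Figure D2:**
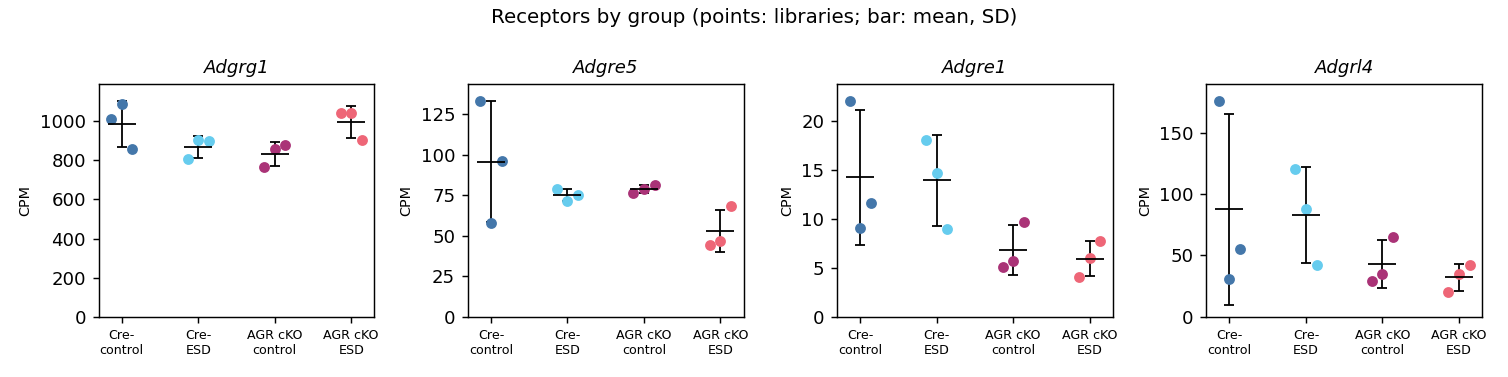
Level in CPM of the 4 receptors named for their differences between groups, with 1 point per library and the mean and SD of 3 libraries as bars. Adgre1 is lower in AGR cKO, at 4.09 to 9.72 CPM against 8.95 to 22.0 CPM, and Adgrl4 spans 31.0 to 176 CPM within Cre- control alone.

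The vascular receptors had lower values in AGR cKO that did not pass the test. Adgrl4 (ELTD1; 3:151437882-151545081), an endothelial receptor of sprouting vessels, had 176, 31.0 and 55.6 CPM in Cre- control, 120, 87.5 and 42.2 CPM in Cre- ESD, 29.1, 35.0 and 64.9 CPM in AGR cKO control, and 20.4, 34.7 and 42.0 CPM in AGR cKO ESD. The ESD groups did not overlap, by a small margin, and the unstressed groups did. Its log2 fold change for genotype was -1.37 ± 0.59 (SE) in ESD animals (adjusted p = 0.292) and -1.20 ± 0.41 averaged over conditions (adjusted p = 0.132). Adgrf5 (GPR116; 17:43360329-43459557), an endothelial and lung epithelial receptor, ranged from 59.8 to 265 CPM in Cre- control and from 40.3 to 79.7 CPM in AGR cKO ESD, with an averaged fold change of -0.92 ± 0.34 (adjusted p = 0.163). Adgrg6 (GPR126), needed for myelination by Schwann cells, had -0.74 ± 0.33 (adjusted p = 0.244). Without Cre- control replicate 1, the averaged values were -0.69 for Adgrl4, -0.55 for Adgrf5 and -0.41 for Adgrg6.

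The endothelial markers moved with these receptors. All 12 endothelial markers had lower fitted values in AGR cKO, with a median log2 fold change of -1.02 averaged over conditions, and 0 of the 12 passed the test. Their sum was 380 to 2007 CPM in Cre- control, 464 to 1177 CPM in Cre- ESD, 376 to 797 CPM in AGR cKO control and 266 to 509 CPM in AGR cKO ESD. Adgrl4 varied 8.63-fold between libraries and 1.49-fold relative to the endothelial sum, and Adgrf5 6.57-fold and 1.29-fold. Adgrf5 made up 13.2% to 17.0% of that sum in Cre- libraries and 14.2% to 16.4% in AGR cKO libraries. With the mean log2 CPM of both marker lists as covariates, the averaged genotype fold change was -0.11 for Adgrl4, -0.03 for Adgrf5 and -0.41 ± 0.23 (SE) for Adgrg6. As said for Adgre1, that fit called 0 of all genes for genotype. Adgrg6 followed the endothelial sum less closely: it varied 4.53-fold between libraries and 1.90-fold relative to that sum, from 0.704% to 1.33%.

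**Figure D3:**
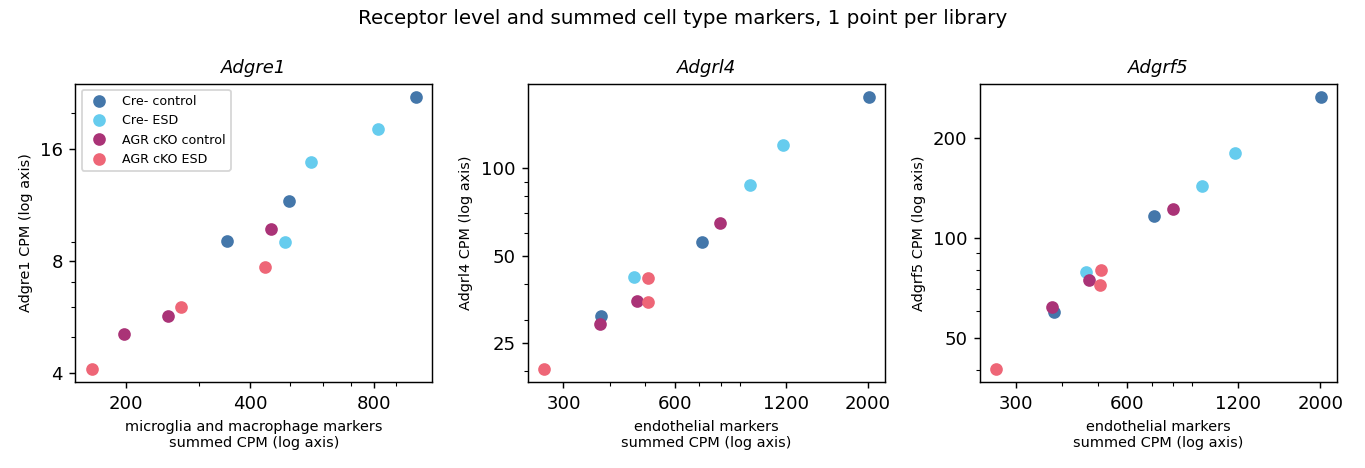
Level of Adgre1 against the summed microglia and macrophage markers, and of Adgrl4 and Adgrf5 against the summed endothelial markers, in CPM on log axes with 1 point per library coloured by group. Each receptor is high where its marker sum is high, with Cre- control replicate 1 at the top right and AGR cKO ESD replicate 1 at the bottom left of all 3 panels.

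Adgre5 (CD97), a receptor of leukocytes and other cells that binds CD55, had 133, 57.9 and 96.3 CPM in Cre- control, 78.7, 71.4 and 75.4 CPM in Cre- ESD, 76.6, 78.9 and 81.0 CPM in AGR cKO control, and 44.3, 46.6 and 68.1 CPM in AGR cKO ESD. The 3 stressed AGR cKO libraries lay below all libraries of AGR cKO control and of Cre- ESD. The log2 fold change under stress was -0.57 ± 0.24 (SE) in AGR cKO (unadjusted p = 0.0345, adjusted p = 0.647) and -0.35 ± 0.24 in Cre- (adjusted p = 0.769). Averaged over genotypes it was -0.46 ± 0.17 (adjusted p = 0.448). For genotype averaged over conditions it was -0.39 ± 0.17 (adjusted p = 0.219). With the microglial and endothelial marker means as covariates it was 0.03 ± 0.19 (adjusted p = 0.99), in the fit that called 0 of all genes for genotype. Adgra2 (GPR124), a coreceptor for Wnt7 signals in brain endothelium, had group means of 76.5 ± 40.3 (SD, n = 3) CPM in Cre- control, 65.7 ± 4.7 CPM in Cre- ESD, 64.7 ± 6.7 CPM in AGR cKO control and 43.8 ± 9.0 CPM in AGR cKO ESD. Its averaged fold change was -0.41 ± 0.21 for genotype (adjusted p = 0.295) and -0.39 ± 0.21 for stress (adjusted p = 0.511). Mural and fibroblast markers moved with both receptors under stress in AGR cKO: 10 of the 11 had lower fitted values, with a median log2 fold change of -0.65, and 0 passed the test. Their sum was 2856 to 5588 CPM in Cre- control, 2808 to 5750 CPM in Cre- ESD, 5039 to 5816 CPM in AGR cKO control and 1825 to 4126 CPM in AGR cKO ESD, without overlap between the AGR cKO groups. Other lists also had lower fitted values in that comparison. These were all 12 neuron markers (median -0.82), all 12 endothelial markers (-0.34) and all 8 ependymal and choroid plexus markers (-0.35). Of the oligodendrocyte lineage markers 8 of 11 were lower, of the microglial markers 7 of 14, and 11 of 12 astrocyte markers were higher. The part of the mural, neuron and ependymal markers in these values was not tested.

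For stress in Cre- animals, 0 of 22 receptors passed the test and 0% of all 19163 genes did. At an unadjusted p under 0.05 there was 1 receptor, Adgrl3, against 7.19% of all genes, and 0 receptors had groups that did not overlap, against 11.1%. For stress in AGR cKO animals, 0 of 22 receptors and 0% of genes passed, with 2 receptors at an unadjusted p under 0.05 (Adgrg1 and Adgre5) against 7.58% of genes. The groups did not overlap for 5 receptors, Adgra2, Adgre5, Adgrg1, Adgrg5 and Adgrl2, against 16.6% of genes. Averaged over genotypes, 0 receptors and 0% of genes passed, 2 receptors had an unadjusted p under 0.05 against 10.4% of genes, and 0 separated 6 against 6 libraries against 0.459%. DESeq2 also called 0 receptors for stress in either genotype. The receptors' median log2 fold change averaged over genotypes was 0.03, within a range of -0.46 to 0.47, and that of all genes was -0.01.

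For genotype in unstressed animals, 0 of 22 receptors passed by edgeR or DESeq2, against 0.0157% of all genes by edgeR. Unadjusted p was under 0.05 for 2, Adgre1 and Adgrg1, against 10.2%, and 0 had groups without overlap, against 16.9%. Among ESD animals, 0 of 22 receptors passed, against 1.04% of all genes, and DESeq2 called 1, Adgre1. There 3 receptors, Adgre1, Adgrl4 and Adgrf5, had an unadjusted p under 0.05 against 15.6% of genes, and 4 (Adgra2, Adgre1, Adgre5 and Adgrl4) had groups without overlap against 19.9%. Averaged over conditions, 1 of 22 receptors passed, against 3.49% of all genes (1.55% higher and 1.94% lower in AGR cKO). At an unadjusted p under 0.05 there were 5, all lower in AGR cKO (Adgre1, Adgrl4, Adgrf5, Adgre5 and Adgrg6), against 20.0% of genes. None of the 22 separated the genotypes over 6 against 6 libraries, against 2.77% of genes. The receptors' median was -0.09, within -1.20 to 0.26, and that of all genes -0.0023. The interaction called 0 receptors and 0% of genes, with 1 receptor at an unadjusted p under 0.05 against 4.49%.

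**Figure D4:**
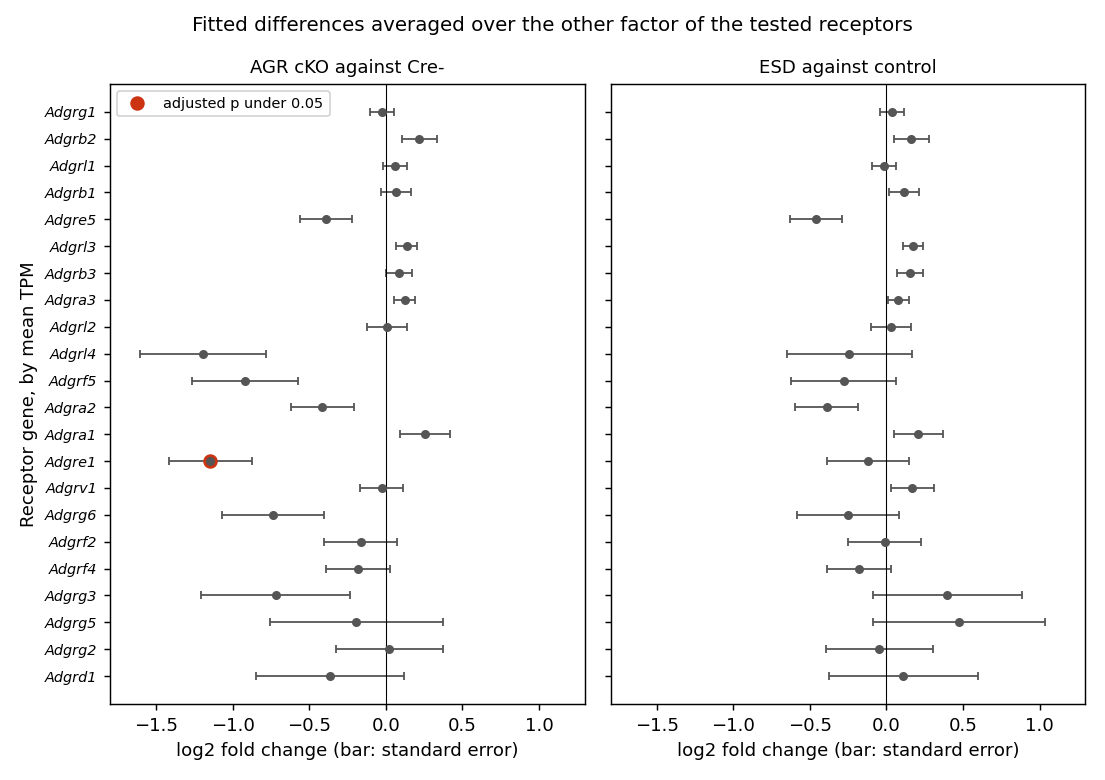
Log2 fold change of AGR cKO against Cre- averaged over conditions, and of ESD against control averaged over genotypes, for the 22 tested receptors, with the standard error as bars. Adgre1, at -1.15 for genotype, is the single receptor with an adjusted p under 0.05, and the fold changes of Adgrg1, Adgrl1 and Adgrl2 lie close to 0 in both panels.

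The known ligands and partners of the family were examined as 4 lists with 44 genes, 43 of them tested. Averaged over conditions, 6 of the 43 (14%) differed between genotypes, 3 higher and 3 lower in AGR cKO, against 3.49% of all genes. Their median log2 fold change was 0.02. In ESD animals 3 of the 43 were called, all higher (6.98% against 1.04% of all genes), and 0 were called in the other 5 comparisons. The lists were chosen with earlier results of these data known. These shares therefore describe the lists and cannot show that such genes are called more often than others.

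Of the 5 tested BAI ligands, 1 was called. C1ql3, a secreted C1q-like protein that binds Adgrb3, had 5.21, 5.11 and 7.17 CPM in Cre- control, 4.27, 3.48 and 2.46 CPM in Cre- ESD, 8.95, 10.3 and 8.18 CPM in AGR cKO control, and 7.41, 6.90 and 7.72 CPM in AGR cKO ESD. Within each condition every AGR cKO library was above every Cre- library. The log2 fold change was 0.88 ± 0.14 (SE; adjusted p = 0.0102, edgeR) averaged over conditions and 1.11 ± 0.20 in ESD animals (adjusted p = 0.0353). Its receptor Adgrb3 gave 0.09 ± 0.09.

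Of the 13 ligands and partners of other adhesion receptors, 4 were called. Wnt7a, a Wnt that signals through the complex of Adgra2 and Reck, had 80.9, 69.9 and 68.6 CPM in Cre- control, 49.8, 61.4 and 31.9 CPM in Cre- ESD, 87.1, 88.8 and 93.1 CPM in AGR cKO control, and 98.5, 89.3 and 88.6 CPM in AGR cKO ESD. It was higher in AGR cKO by 0.62 ± 0.12 (SE; adjusted p = 0.0244) averaged over conditions and by 0.95 ± 0.18 in ESD animals (adjusted p = 0.0369). Reck, the membrane-anchored part of that complex, had 44.4, 35.0 and 32.8 CPM in Cre- control, 44.1, 38.5 and 71.0 CPM in Cre- ESD, 27.6, 27.4 and 27.7 CPM in AGR cKO control, and 26.8, 26.2 and 31.2 CPM in AGR cKO ESD. Its averaged fold change was -0.65 ± 0.14 (adjusted p = 0.0283). Both genes separated the genotypes over 6 against 6 libraries, in opposite directions, and Adgra2 did not. Wnt7b, the other Wnt7 ligand of the complex, lay between 84.8 and 112 CPM over the 12 libraries and did not pass the test (0.04 ± 0.07 averaged over conditions, adjusted p = 0.836). Averaged over conditions, all 11 mural and fibroblast markers had lower fitted values in AGR cKO (median -0.26, 0 called). In ESD animals all 11 were lower (median -0.46), and in unstressed animals 6 were lower and 5 higher (median -0.03). Reck gave -0.87 ± 0.19 in ESD and -0.44 ± 0.19 in unstressed animals (adjusted p = 0.061 and 0.465, edgeR). The part of these markers in the Reck result was not tested.

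Fndc4, a secreted fibronectin-type protein that binds Adgrf5, had 54.2, 63.8 and 57.3 CPM in Cre- control, 63.4, 63.4 and 53.4 CPM in Cre- ESD, 66.3, 71.0 and 71.2 CPM in AGR cKO control, and 80.4, 89.2 and 75.5 CPM in AGR cKO ESD. All 6 AGR cKO libraries were above all 6 Cre- libraries, with a fold change of 0.35 ± 0.07 (SE; adjusted p = 0.0199) averaged over conditions and 0.44 ± 0.09 in ESD animals (adjusted p = 0.0482). Cd55, the complement regulator bound by Adgre5, had 9.57, 7.31 and 5.44 CPM in Cre- control, 6.12, 3.99 and 5.71 CPM in Cre- ESD, 4.22, 4.26 and 2.99 CPM in AGR cKO control, and 3.15, 3.32 and 2.64 CPM in AGR cKO ESD. Its averaged fold change was -0.88 ± 0.17 (adjusted p = 0.021), and its receptor Adgre5 did not pass the test (-0.39 ± 0.17, adjusted p = 0.219, and 0.03 with the marker covariates).

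Among the 16 intracellular effectors, 1 was called. Baiap2, an adaptor of actin-rich protrusions first named for its binding to BAI1, had 36.7, 24.1 and 23.6 CPM in Cre- control, 26.4, 25.6 and 35.5 CPM in Cre- ESD, 15.8, 19.9 and 19.5 CPM in AGR cKO control, and 13.1, 20.1 and 18.6 CPM in AGR cKO ESD. All 6 AGR cKO libraries lay below all 6 Cre- libraries, with a fold change of -0.69 ± 0.15 (SE; adjusted p = 0.03). Of the 9 latrophilin ligands 0 were called. The smallest p values there belonged to Cntn6, a contactin, and to Tenm1, a teneurin. Cntn6 gave 0.93 ± 0.28 for genotype averaged over conditions (unadjusted p = 0.00573, adjusted p = 0.0878). Tenm1 gave -1.56 ± 0.49 for stress in AGR cKO (unadjusted p = 0.0079, adjusted p = 0.647). Its level was low, with means of 0.73 CPM in AGR cKO control and 0.25 CPM in AGR cKO ESD, and these groups overlapped. All 12 neuron markers also had lower fitted values under stress in AGR cKO (median log2 fold change -0.82, 0 called). Their part in the Tenm1 value was not tested.

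All microglial and endothelial markers, given above, also had lower fitted values in AGR cKO for these comparisons, with 0 called. Within a condition their sums overlapped between genotypes, except the microglial sum in ESD animals. Averaged over conditions, 7 of 8 ependymal and choroid plexus markers had lower fitted values in AGR cKO, of which 5 passed the test (median log2 fold change -0.73). Their sum was 92.1 to 143 CPM in Cre- control, 72.7 to 88.3 CPM in Cre- ESD, 57.3 to 95.7 CPM in AGR cKO control and 55.0 to 72.8 CPM in AGR cKO ESD, and their part in these results was not tested. The fit with the microglial and endothelial marker means as covariates gave these averaged fold changes. They were 0.86 for C1ql3, 0.51 for Wnt7a, 0.29 for Fndc4, -0.42 for Reck, -1.01 for Cd55 and -0.36 for Baiap2. None of the 6 was called in that fit, which called 0 of all genes in each genotype comparison and spends 2 further degrees of freedom. Limma on log2(TPM + 1) or log2(TPM + 0.1) also lost the calls of Cd55 (adjusted p = 0.0684 and 0.0829) and Baiap2 (0.0674 and 0.0628), and the fit without a filter on low counts lost Fndc4 in ESD animals (0.0689). Averaged over conditions, C1ql3 stayed past the threshold with any 1 library left out. Fndc4 was lost without AGR cKO control replicate 2 (adjusted p = 0.0643) or 3 (0.0516), and Cd55 without AGR cKO control replicate 2 (0.0564) or 3 (0.051). Without AGR cKO ESD replicate 1, Cd55 kept its call by a small margin (0.05 after rounding). Wnt7a was lost without Cre- control replicate 3 (adjusted p = 0.0553), AGR cKO control replicate 1 (0.0564), 2 (0.0699) or 3 (0.0579), or AGR cKO ESD replicate 1 (0.0618). Baiap2 was lost without Cre- ESD replicate 3 (adjusted p = 0.0572), AGR cKO control replicate 1 (0.0799), 2 (0.0773) or 3 (0.0621), or AGR cKO ESD replicate 1 (0.07). Reck was lost without Cre- control replicate 1 (adjusted p = 0.0503), AGR cKO control replicate 1 (0.0728), 2 (0.0821) or 3 (0.0638), or AGR cKO ESD replicate 1 (0.0766) or 2 (0.0581). In ESD animals the calls held in fewer of the 12 fits. C1ql3 was called there in 3, without Cre- control replicate 1, 2 or 3, and otherwise had adjusted p = 0.0587 to 0.122. Wnt7a was called in 4, without Cre- control replicate 1 or 2 or Cre- ESD replicate 2 or 3, and otherwise had adjusted p = 0.0579 to 0.128. Fndc4 was called in 1, without Cre- control replicate 1, and otherwise had adjusted p = 0.0511 to 0.141.

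**Figure D5:**
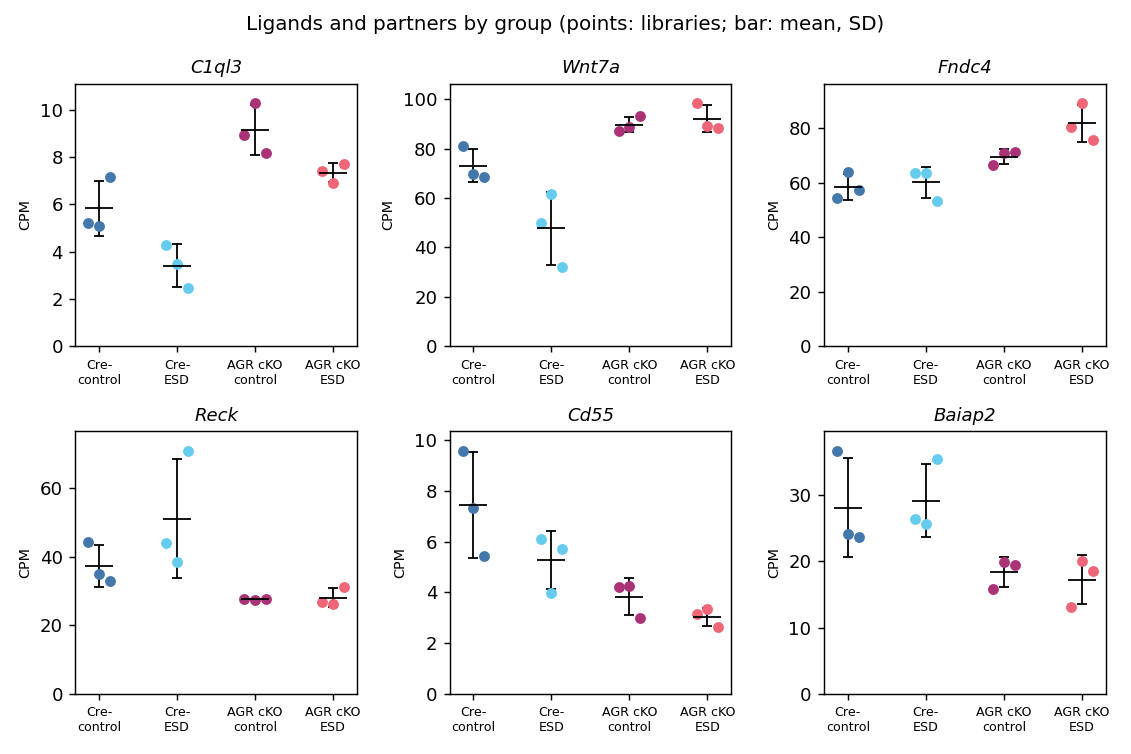
Level in CPM of the 6 called ligands and partners, with 1 point per library and the mean and SD of 3 libraries as bars. C1ql3, Wnt7a and Fndc4 are higher and Reck, Cd55 and Baiap2 lower in the AGR cKO groups.

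Promoter windows of RefSeq (GRCm38.p6; 250 bases before to 50 after a start) were available for 20 receptors, 24 windows in all. The half-site bound by the glucocorticoid receptor, AGAACA on either strand, was found in 3 of the 24 (12.5%), against 19% of 32851 windows of all genes. The matching windows belonged to Adgrf4, Adgrf5 and the untested Adgre4. The same half-site followed by 3 bases and TGTTC, on either strand, was in 0 of the 24, against 0.0487% of all windows. A match is a description of letters, not a binding site. Adgre1, Adgre5, Adgra2 and Adgrb1 were among the receptors without a window. Some windows were not at the starts used most here. The start of the Adgrf4 window held 0% of that gene's TPM, and that of the Adgrl2 window a mean of 1.48%. The start groups with the largest mean shares of Adgrg1 (58.7%) and Adgrb2 (69.0%) had no window.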

How the data were processed

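Libraries were made with the TruSeq Stranded mRNA kit, per the labels' protocols. Per the submitters' processing notes, StringTie 1.3.4b, DESeq2, Bowtie2, HISAT2 2.1.0, HISAT and Trimmomatic were run on build mm10, in roles that are not given. The authors deposited whole-number read counts per gene and per transcript, with FPKM and TPM per the file headers; how the counts were derived is not stated. Groups follow the sample titles, and cre_M and cre_P in column names were read as Cre minus and plus.

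Gene counts were filtered with filterByExpr, which left 19163 genes, scaled with TMM factors and fitted with edgeR 4.0.16 (R 4.3.3; quasi-likelihood, 1 mean per group, 12 libraries, 8 residual degrees of freedom), with two-sided p-values adjusted by Benjamini-Hochberg in each of 7 contrasts and called under 0.05. The common biological coefficient of variation was 0.1945. An exact permutation test of 3 against 3 libraries cannot go below 0.1. No library pair agreed within sampling noise. The method was tested on simulated counts. Alternatives were DESeq2 1.42.0, median-of-ratios scaling, no filter, a replicate block, marker covariates, limma 3.58.1 on log2(TPM + 1) and log2(TPM + 0.1), and each library left out. FPKM values as deposited were not used in tests. Library values are given for receptors called in a contrast, for those with an unadjusted p under 0.05 in a pairwise contrast without overlap or in the interaction, and for the 8 of highest mean TPM. Ligands and effectors are named when called, or as the 2 with the smallest p of a list with none. The members, lists and tests were chosen with earlier results of these data known.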

Additional observations from a re-analysis of the deposited data

How the results depend on the processing

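Of 25 named fold changes, all kept their direction under each alternative except Adgre5, which with the marker covariates was 0.03 ± 0.19 for genotype averaged over conditions (adjusted p = 0.99). For the count of receptors called averaged over conditions, 1 in the fit reported, the value was 0 without the filter on low counts, with the replicate block, with the covariates, and with limma on TPM + 1 or TPM + 0.1, and it ranged from 0 to 2 with 1 library left out. The 2, without Cre- control replicate 2, were Adgre1 (adjusted p = 0.031) and Adgre5 (-0.52, adjusted p = 0.0371). Adgre1 averaged over conditions gave adjusted p = 0.0503 without the filter, 0.0618 with the replicate block, 0.0418 with median-of-ratios scaling and 0.000578 in DESeq2, was called in 4 of the 12 fits with 1 library left out, and ranged there from -1.32 to -0.91. The causes were not tested. In ESD animals DESeq2 called 1 receptor, Adgre1 (-1.23, adjusted p = 0.0239), against 0.

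Counts over all genes also moved. DESeq2 called 25 genes for stress in Cre- and 18 in AGR cKO (0 in edgeR for both), 266 for genotype in unstressed animals (3), 791 in ESD animals (200), 7 for the interaction (0), 1710 for genotype averaged over conditions (668) and 32 for stress averaged over genotypes (0). The covariates gave 0 for each genotype comparison and 1 for stress averaged over genotypes. In ESD animals the fit without the filter called 100. Leaving out 1 library gave 0 to 63 genes for genotype in unstressed animals, 2 to 280 in ESD animals, 151 to 932 averaged over conditions, and 0 to 1 for stress in Cre- and for stress averaged over genotypes.

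Whether replicate numbers pair the samples was not settled. Deviations of same-numbered libraries correlated at -0.10 to 0.23, over 0.1 in 7 of 18 pairs, and differently numbered libraries were not compared. The replicate block called 799 genes averaged over conditions and 244 in ESD animals, and kept 9 of the 10 named calls. No filter kept 8, losing Adgre1 and, in ESD animals, Fndc4 (adjusted p = 0.0689). Limma on TPM + 1 and on TPM + 0.1 kept 7 each, losing Adgre1, Cd55 (adjusted p = 0.0684 and 0.0829) and Baiap2 (0.0674 and 0.0628). Depth limits the receptors under 1 TPM most, and 5 could not be tested.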
